A study of Mus musculus with 5 samples.

Results

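A marker gate for pericytes of the embryonic lung held 153 cell barcodes among 19491 kept from 5 mouse lungs. A barcode was kept with at least 500 detected genes and at most 15% of its UMIs (unique molecular identifiers, each counting 1 captured RNA molecule) from mitochondrial genes. It was a member when at least 3 of the 6 pericyte markers Pdgfrb, Cspg4, Notch3, Kcnk3, Gucy1a1 and Higd1b had a UMI. It also had to hold 0 UMIs of the 7 excluding genes Tcf21 and Pdgfra (fibroblasts), Actg2 and Cnn1 (smooth muscle), Ptprc (immune cells), Epcam (epithelium) and Cdh5 (endothelium). Because these 13 genes chose the members, their levels are descriptions and carry no test.

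Pericytes are mural cells that lie in the basement membrane of capillaries, touch the endothelium and help to set capillary tone and stability. They are recruited by PDGF-B from the endothelium acting on PDGFRB, are kept in their state in part by NOTCH3, and relax through guanylate cyclase, whose subunits are encoded by Gucy1a1 and Gucy1b1. In the lung they share much of their contractile gene set with vascular smooth muscle, so the border between both cell types is gradual.

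The study measured whole dissociated lungs of E18.5 embryos, with 1 library per embryo. The Het group held 2 embryos with 1 intact Zswim8 allele (Zswim8+/-, Het1 and Het2), and the KO group held 3 embryos labelled Zswim8-/- (KO1, KO2 and KO3). Zswim8 encodes the substrate receptor of a ubiquitin ligase that degrades Argonaute bound to certain microRNAs when a trigger transcript pairs with them. Both groups carry a Zswim8 mutation, since the controls are heterozygous rather than wild type, and the deleted part of the gene is not given in the sources used here. Throughout, pairs of Het values stand in the order Het1, Het2 and sets of 3 KO values in the order KO1, KO2, KO3.

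RNA of the targeted gene overlapped between the groups. Zswim8 (chromosome 14, 20707552 to 20723619, plus strand, GRCm38) measured 42.8 and 43.9 CPM in Het members against 51.3, 34.8 and 39.1 CPM in KO members, where CPM is a gene's UMIs per 1000000 UMIs of the gate in that library, scaled for composition (TMM). That is a log2 difference of -0.03 ± 0.41 (KO minus Het, ± standard error here and below). Counts from 3′ tags outside a deleted part check nothing, so every direction below rests on the labels of the libraries labelled KO. Xist and Y-linked UMIs mark KO1 and KO2 as female and Het1, Het2 and KO3 as male, so sex is partly confounded with genotype. Fits with sex as a covariate or in male libraries alone therefore set KO3 alone against Het1 and Het2. Kept barcodes numbered 3129 to 4820 per library with median depths of 9996 to 12974 UMIs. Libraries shared 17 to 44 barcode sequences per pair, none of them a member in both.

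The gate held 15 and 17 barcodes in the Het libraries and 55, 35 and 31 in the KO libraries. Of these 153, 8 barcodes, all in KO libraries, carried the full marker set of another cell type. Of them, 3 in KO1, 1 in KO2 and 2 in KO3 had UMIs of all 6 mesothelial markers (Wt1, Msln, Upk3b, Lrrn4, Krt19 and Upk1b, genes of the sheet of cells that covers the lung), with 14939 to 140313 UMIs each. The other two, both in KO3 with 15974 and 34752 UMIs, held all 8 heart muscle genes looked for (Myh6, Ttn, Tnni3, Myl7, Sln, Myl4, Tnnc1 and Actn2), among them 555 and 521 UMIs of Myl7, and 1 further member, in Het2, held at least 3 of these 8 genes and was kept. None of the 8 had a Higd1b UMI. They supplied 29.2%, 18.3% and 43.2% of the gate's UMIs in the KO libraries and 0% in both Het libraries. Among all kept barcodes, those with at least 3 mesothelial and 3 pericyte markers numbered 7 and 23 in Het, where the excluding genes removed every one, and 16, 10 and 17 in KO, where they removed 13, 9 and 15. The data go against the label for these 8. The other 145 barcodes are called the remaining members below. They too were mixed, with 59 that held Higd1b and 86 that held none. Those 86 carried higher levels of several matrix and some smooth muscle genes, so the label is less certain for them. All are called members of the gate rather than pericytes. The main results are given with and without the 8 off-type barcodes, a choice made after seeing the data.

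**Figure D1:**
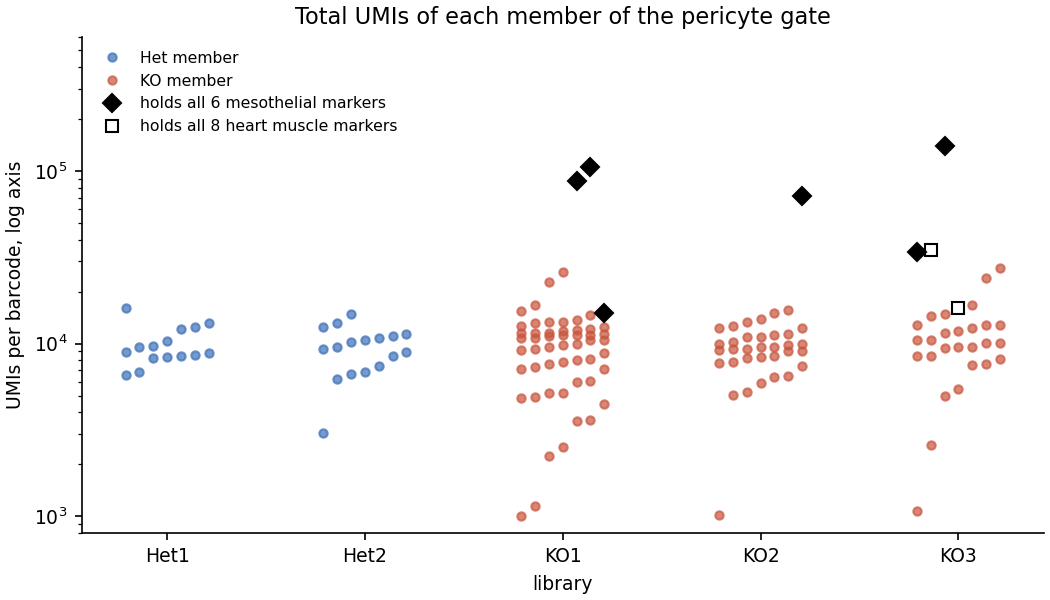
UMIs per barcode (vertical, log axis) of every member, by library; each point is 1 barcode, diamonds hold all 6 mesothelial markers and open squares all 8 heart muscle markers. The diamonds reach 140313 UMIs and occur only in KO1, KO2 and KO3, while the remaining members of all libraries lie between 1002 and 27367.

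The remaining members as a whole carried several mural genes beyond those of the rule. Of the 6 markers, Gucy1a1 was found in 137 of 145 barcodes, Pdgfrb and Notch3 in 134 each, Cspg4 in 89, Kcnk3 in 79 and Higd1b in 59. Genes that did not enter the rule also stood high against the other kept barcodes. Ndufa4l2, a mitochondrial protein typical of hypoxia-adapted mural cells, had a median of 986 CPM over the 5 libraries against 61.6 in other kept barcodes. Cox4i2 had 318 CPM against 24.2, the guanylate cyclase subunit Gucy1b1 had 385 against 19.6, the transcription factor Ebf1 had 568 against 42.9 and the Notch target Heyl had 180.0 against 10.3. These are descriptions of a set chosen by its own genes, unscaled between libraries.

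Markers of other cell types were present in the remaining members, those of smooth muscle most. Of the 6 mesothelial genes, 114 barcodes held none, 29 held 1 and 2 held 2, and the summed mesothelial level was 20.2 and 93.4 CPM in Het against 31.8, 12.4 and 16.9 in KO (not TMM-scaled), with Lrrn4 at 0 in all 5 libraries. Over all 153 barcodes the same sum reached 1271, 637 and 1779 CPM in KO. Endothelial genes summed to 64.3 to 123 CPM with Cdh5 at 0 by the rule, immune genes to 111 to 189 CPM with Ptprc at 0, and adventitial fibroblast genes to 512.7 and 1457 CPM in Het against 734, 276 and 301 in KO, with Ly6a at 0 in every library. Alveolar fibroblast genes summed to 614 and 816 CPM in Het against 316, 847 and 632 in KO with Tcf21 and Pdgfra at 0 by the rule, and epithelial genes to 307 to 754 CPM with Epcam at 0. Smooth muscle genes summed to 3987 and 4402 CPM in Het against 2249, 2132 and 3270 in KO, with Actg2 and Cnn1 at 0 by the rule. The 6 pericyte markers summed to 2442 and 2017 CPM in Het and 2556, 3249 and 2107 in KO, less than the smooth muscle sum in Het1, Het2 and KO3. In the smooth muscle gate the same smooth muscle sum was 8895 to 10942 CPM. Of the 145, 85 held UMIs of at least 3 of the 7 smooth muscle markers, 40% and 64.7% of Het members against 55.8%, 55.9% and 74.1% of KO members, so the groups overlapped. Haemoglobin genes gave 4.09% and 0.553% of gate UMIs in Het against 0.425%, 1.82% and 0.899% in KO. The part of these cells in the results below was not tested.

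Levels also differed across the marker threshold. Pdgfrb is itself counted in that threshold, so its levels are a description, while Cox4i2 is not in the rule. The 42 members with exactly 3 markers had 127 CPM of Pdgfrb and 67.6 CPM of Cox4i2, and the 35 of them outside the off-type set had 287 and 164 CPM. The 111 with 4 to 6 markers had 482 and 401 CPM, or 509.5 and 426 CPM in the 110 outside that set. The 95 barcodes with 2 markers and no excluding UMI, which stayed outside, had 37.0 and 9.54 CPM.

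Members made up a larger share of the KO-labelled libraries than of the Het libraries, without overlap, though the test over libraries did not pass. They were 0.311% of kept barcodes in Het1 (95% Wilson interval 0.189 to 0.513), 0.404% in Het2 (0.253 to 0.647), 1.76% in KO1 (1.35 to 2.28), 1.05% in KO2 (0.758 to 1.46) and 0.772% in KO3 (0.545 to 1.09). The means were 0.358% ± 0.0659 (SD, n = 2) and 1.19% ± 0.508 (SD, n = 3), 3.34 times higher in KO, with no overlap and an exact two-sided permutation p of 0.2. With 2 libraries against 3 this test cannot go below 0.1, and a share of barcodes cannot tell more pericytes from fewer other cells. The intervals cover counting error only.

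The direction was the same on another denominator and without the 8 off-type barcodes. Members per 100 barcodes of an endothelial gate, the cell type that pericytes lie on, were 2.99 and 5.15 in Het and 16.5, 10.97 and 9.48 in KO, 3.02 times higher in KO (exact permutation p 0.1, n = 2 and 3). Without the 8 off-type barcodes they were 15.6, 10.7 and 8.26 in KO, a ratio of 2.82 (exact permutation p 0.2, n = 2 and 3). The remaining 145 members made up 0.311% and 0.404% in Het and 1.66%, 1.02% and 0.673% in KO, a ratio of 3.13. Among male libraries alone, KO3 at 0.772% was 2.16 times the Het mean, or 1.88 times without the off-type barcodes. KO1 held the highest share, and without it the ratio was 2.55, or 2.37 without the off-type barcodes.

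The excluding genes shaped the size of the gap. Barcodes with at least 3 pericyte markers, before any exclusion, were 6.08% and 6.83% of kept barcodes in Het against 12.2%, 8.94% and 10.5% in KO, with a ratio of means of 1.63 with no overlap (exact permutation p 0.1, n = 2 and 3). The exclusion then removed 94.9% and 94.1% of them in Het and 85.6%, 88.2% and 92.6% in KO. Excluding Ptprc, Epcam and Cdh5 only left a ratio of 1.78. Among 3-marker barcodes Actg2 was found in 44.4% and 42.2% in Het and 34.4%, 37.0% and 32.5% in KO, and Cdh5 in 25.9% and 27.2% against 19.4%, 19.5% and 20.2%. Tcf21 went the other way, at 35.8% and 34.8% in Het against 41.7%, 40.7% and 49.2% in KO, and Pdgfra overlapped, at 43.7% and 50.5% against 37.5%, 34.3% and 47.0%. Red-cell barcodes, which should lack all 7 excluding genes, held 202 and 221 CPM of them (over non-haemoglobin UMIs) in Het and 161, 145 and 188 in KO as a sum, but single genes differed in direction. Cdh5 had 107 and 116 CPM there in Het against 49.0, 54.0 and 77.5 in KO, Epcam had 36.5 and 34.8 against 65.0, 47.7 and 47.3, and Actg2 overlapped at 5.48 and 7.93 against 25.0, 4.54 and 10.1. The part of free RNA in the share was not tested.

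**Figure D2:**
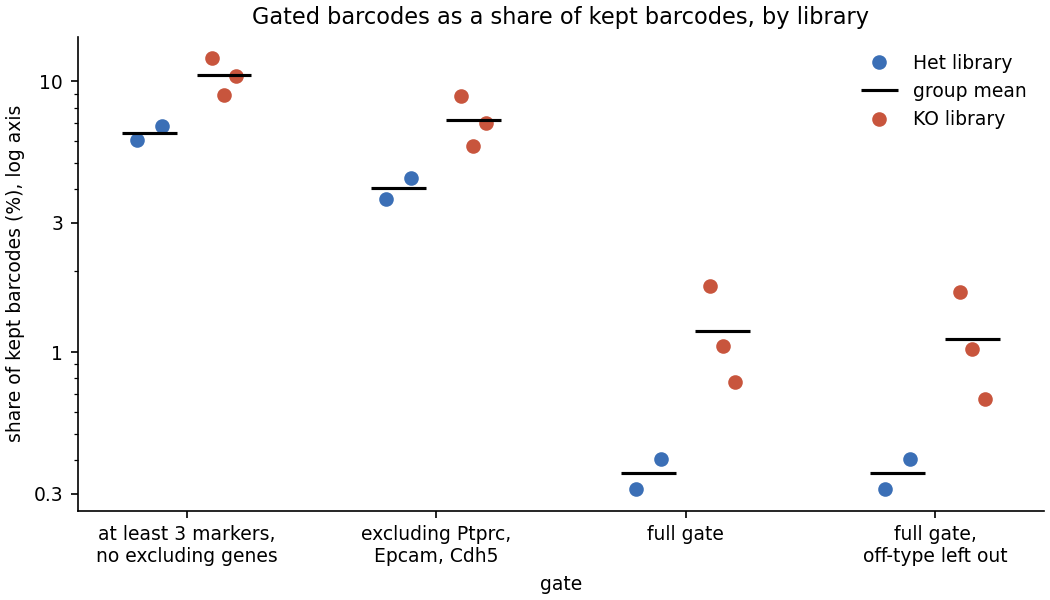
Share of kept barcodes (vertical, percent, log axis) under 4 versions of the gate; points are libraries and bars are group means. KO libraries lie above Het libraries in every version, and the ratio of means is 1.63 without excluding genes and 3.34 with the full gate.

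Higd1b divided the remaining members. Higd1b encodes a small mitochondrial protein and is among the most specific lung pericyte genes. The 59 members with a Higd1b UMI held a median of 13 of them and up to 55, and only 6 held exactly 1, while 86 members held none. Median depth was 6703 to 10162 UMIs over the libraries with Higd1b and 8916 to 11056 without. Members with Higd1b numbered 4 and 5 in Het and 24, 17 and 9 in KO. The split was chosen after seeing the data, so the values that follow are descriptions, in CPM without TMM scaling.

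Several ion channel and relaxation genes of capillary pericytes were higher in members with Higd1b. Kcnj8 and Abcc9, which encode the pore and the regulatory subunit of the vascular ATP-sensitive potassium channel, had UMIs in 40 and 39 of 59 barcodes against 10 and 13 of 86 without Higd1b. With Higd1b, Kcnj8 measured 279 and 395 CPM in Het against 249.7, 290.5 and 110.5 CPM in KO, above every library's value in members without Higd1b, the highest of which was 20.3. Fam162b had UMIs in 38 of 59 members with Higd1b and in 0 of 86 without it. The phosphodiesterase Pde5a, the basement membrane collagen Col4a1 and both cyclase subunits were also higher in members with Higd1b in all 5 libraries. Other pericyte genes were not. Rgs5 was lower with Higd1b in Het1 (92.9 against 846 CPM), KO2 (145 against 357) and KO3 (13.8 against 233) and higher in Het2 and KO1, and Heyl and Map3k7cl were lower with Higd1b in all 5 libraries.

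Several matrix genes and part of the contractile genes were higher in members without Higd1b. Mgp, an inhibitor of calcification, measured 5830 and 4999.5 CPM in Het and 3925, 5044 and 4922 CPM in KO, where members with Higd1b had 92.9 and 0 CPM in Het and 173, 54.5 and 511 CPM in KO. Tagln, which encodes the actin-binding protein transgelin, measured 2596 and 2308 CPM in Het and 1533, 1306 and 1778 CPM in KO without Higd1b, and 162 and 565 CPM in Het and 110, 182 and 82.9 CPM in KO with it. Other contractile genes did not follow in every library. Myl9 was higher with Higd1b in Het1 (580.3 against 466 CPM) and KO2 (357 against 350.3), and Myh11 in Het2 (508 against 288). The matrix gene Postn was higher with Higd1b in Het1 (836 against 609 CPM), KO1 (586 against 579), KO2 (654 against 229) and KO3 (580 against 246). In Het2 it was lower with Higd1b (650 against 671). Acta2 had UMIs in 45 and Myl9 in 47 of the 59 members with Higd1b. Timp4 and Spon1 had 0 UMIs in all 59 members with Higd1b and were found in 40 and 64 of the 86 others. Pdgfrb was found in 54 of 59 and 80 of 86 barcodes and Notch3 in 51 of 59 and 83 of 86. Both are markers of the rule, so their presence helped to choose the members and is no support for the label.

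**Figure D3:**
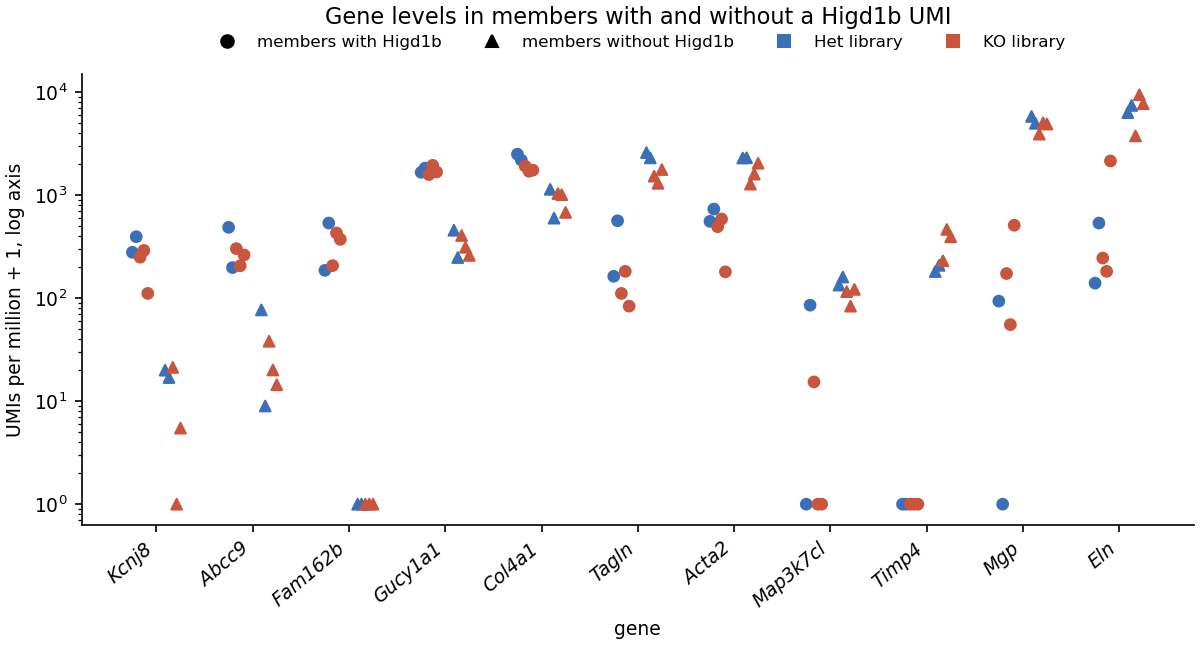
CPM plus 1 (vertical, log axis) of 11 genes, for members with (circles) and without (triangles) a Higd1b UMI; each point is 1 library, blue for Het and red for KO. Kcnj8, Abcc9, Fam162b, Gucy1a1 and Col4a1 lie higher with Higd1b in every library, and Tagln, Acta2, Timp4, Mgp and Eln lie higher without it.

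Both kinds of member were more frequent in KO libraries. Members with Higd1b were 0.0830% and 0.119% of kept barcodes in Het against 0.767%, 0.511% and 0.224% in KO. Members without it were 0.228% and 0.285% in Het and 0.895%, 0.511% and 0.448% in KO. Members with Higd1b made up 26.7% and 29.4% of the remaining members in Het and 46.2%, 50% and 33.3% in KO, without overlap, and on so few barcodes (9 in Het) this difference was not tested.

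Over all 153 members, 33 of 5599 genes differed between the groups (edgeR quasi-likelihood test on UMIs summed per library, Benjamini-Hochberg adjusted p under 0.05), which is 0.589% of the genes tested. Of these, 26 were higher in KO (0.464%) and 7 were lower (0.125%). At an unadjusted p under 0.05, 6.13% of genes were higher and 4.95% lower, and levels did not overlap between groups for 16% of genes in the higher and 14.6% in the lower direction. Single libraries moved the count of 33, which was 0 without Het1 (697 at an unadjusted p under 0.05 in edgeR), 4 without Het2, 3 without KO1, 91 without KO2 and 48 without KO3. Every one of the 26 higher genes had at least 50% of its KO UMIs in the 8 off-type barcodes, which held 31.0% of all KO UMIs of the gate. The mesothelial marker Upk3b had 0 UMIs in both Het libraries and 472, 219 and 782 CPM in KO, at least 53.7-fold higher against a floor of 3 counts over the Het group, and 847 of its 848 KO UMIs lay in those 8 barcodes. The others with the largest change were of the same kind. Col4a4, Gpm6a, Podxl, Lrrn4, Cldn15 and Tmem108 had 0 Het UMIs and 99.0% to 100% of their KO UMIs in the 8 barcodes. Upk1b, Ezr and Hhip had 1, 1 and 5 Het UMIs and 95.4% to 99.3% there.

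Without the 8 barcodes, 0 of 4182 genes passed (0%), with 294 at an unadjusted p under 0.05 (7.03%) in edgeR and 0 passing with 111 unadjusted in DESeq2. Leaving out 1 KO library as well gave 0 genes without KO1 or KO2 and 2 without KO3. Those 2 were the sex-linked genes Xist and Ddx3y, and without KO3 the KO libraries were all female and the Het libraries all male. Of the 26 higher genes, 20 then did not pass the low-count filter. Of the 6 still tested, 4 kept their sign and 2 of them, Plagl1 and Ghr, had an unadjusted p under 0.05. Gas6, the growth-arrest ligand with the smallest adjusted p over all members, went from 28.6 and 43.9 CPM in Het against 541, 402 and 516 in KO to 28.0 and 43.1 against 19.8, 21.6 and 53.2. All 7 lower genes kept their sign, had an unadjusted p under 0.05 in edgeR and did not overlap between groups. They were chosen as lower over all members, a fit that holds the same Het barcodes, so this is no independent support. Of all genes, 12.4% did not overlap in the lower and 12.8% in the higher direction.

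**Figure D4:**
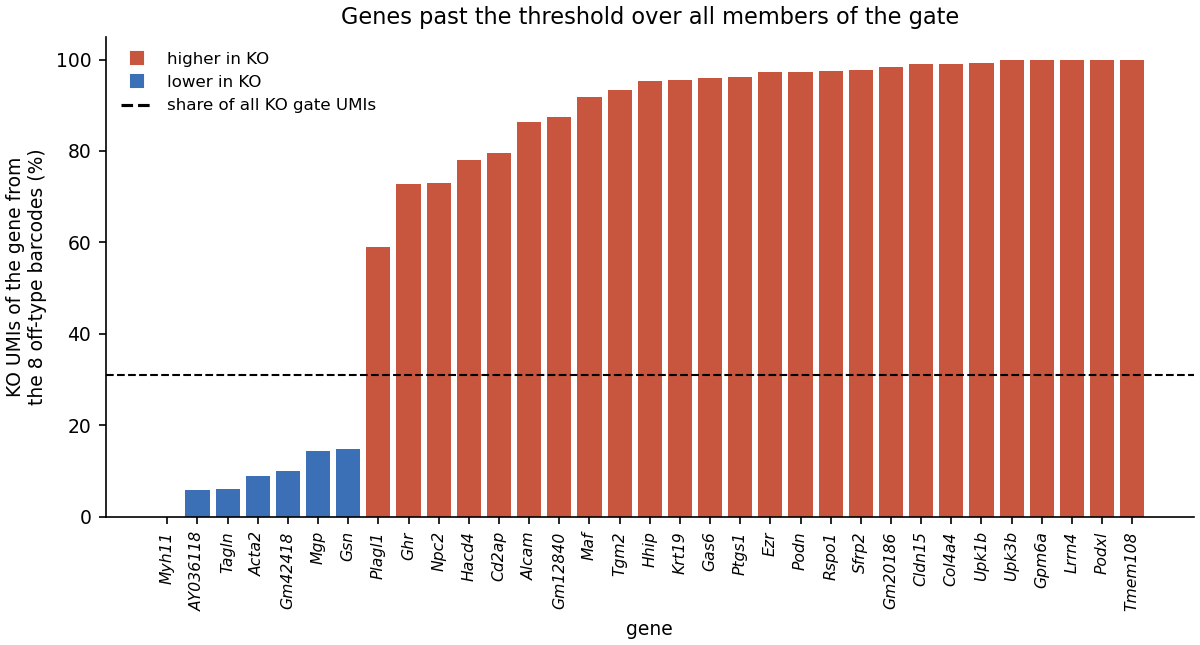
Percent of each gene's KO UMIs (vertical) that came from the 8 off-type barcodes, for the 33 genes past the threshold over all 153 members; red bars are genes higher in KO, blue bars genes lower in KO, and the dashed line marks the 31.0% of all KO gate UMIs these barcodes held. All red bars reach above 50% and all blue bars stay under 15%.

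The 7 lower genes were led by the contractile apparatus. Tagln, Acta2 (smooth muscle actin) and Myh11 (smooth muscle myosin heavy chain) fell over all members, by 1.48 ± 0.19, 1.14 ± 0.21 and 1.44 ± 0.26 on the log2 scale (standard errors), with edgeR adjusted p of 0.0156, 0.0412 and 0.0407. In the remaining members Tagln (chromosome 9, 45929619 to 45936058, minus strand, GRCm38) measured 1963 and 1904 CPM in Het against 942, 724 and 1339 CPM in KO, a log2 difference of -0.95 ± 0.21 with an edgeR adjusted p of 0.332. Acta2 (chromosome 19, 34241090 to 34255590, minus strand) stood at 1864 and 1947 CPM in Het and 953, 1075 and 1562 CPM in KO, a log2 difference of -0.67 ± 0.19 with adjusted p 0.434 in edgeR. Both KO ranges lay under both Het values, and KO3 was the KO library closest to Het for each. Myh11 stood at 224 and 333 CPM in Het and 174, 114 and 173 CPM in KO, a log2 difference of -0.86 ± 0.27. Fits with sex as a covariate and in male libraries alone both set KO3 alone against Het, so they are not separate checks. In the remaining members the differences with the covariate were -0.53 for Tagln, -0.29 for Acta2 and -0.70 for Myh11. In male libraries alone they were -0.4988, -0.26 and -0.66. Over all members, Acta2 with sex as a covariate had a log2 difference of -0.80.

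Across the 23 contractile genes listed, 21 were tested in the remaining members, and none passed the adjusted threshold. At an unadjusted p under 0.05, 7 were lower and 0 higher, against 4.07% lower and 2.97% higher of all genes tested, and the median log2 difference of the list was -0.36 against -0.01 for all genes. Besides Tagln, Acta2 and Myh11 the 7 were the myosin light chain Myl9, at 519 and 598 CPM in Het and 289, 351 and 322 in KO, with Smtn, Myl6 and Crip1. Cald1, the caldesmon gene, did not follow, at 1752 and 1337 CPM in Het and 1450, 1734 and 1595 in KO, nor did Des, at 84.1 and 92.4 CPM in Het and 138, 154 and 79.8 in KO. Groups of Cald1 and Des overlapped. Levels without a split by Higd1b also carry the makeup of the members, and within members without Higd1b alone Tagln differed by -0.70 ± 0.17 and within those with it by -1.41 ± 0.50 on the log2 scale.

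Many contractile genes are driven by serum response factor, which binds a sequence called the CArG box. The window from 250 bases before to 50 after the start of Myl9 is shown because it holds one such match, in capitals, at position -161 from the start (RefSeq, GRCm38.p6, chr2:156775214-156775513, plus strand).
Myl9: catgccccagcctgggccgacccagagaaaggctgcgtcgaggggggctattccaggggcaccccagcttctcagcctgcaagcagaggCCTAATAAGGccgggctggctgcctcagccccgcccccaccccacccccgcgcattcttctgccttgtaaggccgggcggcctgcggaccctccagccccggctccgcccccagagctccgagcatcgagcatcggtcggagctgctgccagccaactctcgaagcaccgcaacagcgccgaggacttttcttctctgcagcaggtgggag
Searched on both strands, the exact CArG box lay in 4 of the 23 promoters of contractile genes (17.4%) and in 535 of 32851 promoters in all (1.63%). Those 23 promoters belong to 20 of the contractile genes listed, and no promoter was available for Tagln or Myh11. The Acta2 window held no exact match, which says only that these letters are not in that window.

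The other 4 lower genes were Gsn (gelsolin, which severs actin filaments), Mgp and the transcripts Gm42418 and AY036118, which overlap ribosomal RNA repeats. Gsn stood at 322 and 530.0 CPM in Het and 199.8, 188 and 259 CPM in KO of the remaining members, a log2 difference of -0.996 ± 0.25. Mgp stood at 4325 and 3858 CPM in Het and 2366, 2468 and 3776 CPM in KO, a log2 difference of -0.51 ± 0.18, with KO3 just under the Het values. Within members without Higd1b Mgp differed by -0.25 ± 0.14, and within those with it by 1.99 ± 1.28 on the log2 scale. With sex as a covariate the log2 difference was -0.12 for Mgp and -0.72 for Gsn, and in male libraries alone -0.085 and -0.69. Both fits set KO3 alone against Het. The 2 ribosomal repeat transcripts were lower by -0.72 ± 0.13 and -0.54 ± 0.17 on the log2 scale, and such reads move with RNA quality and with how reads are assigned.

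**Figure D5:**
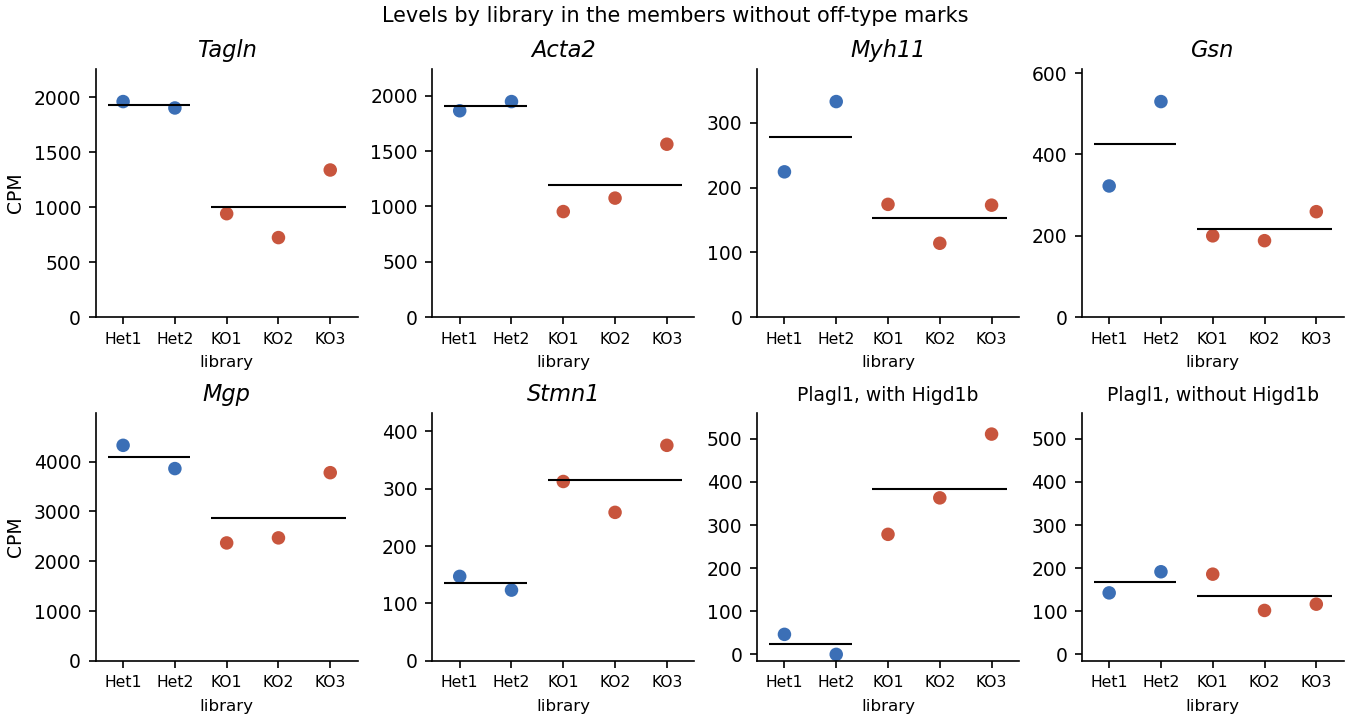
CPM (vertical) by library in the 145 remaining members for 6 genes, and CPM of Plagl1 in members with and without a Higd1b UMI; points are libraries (blue Het, red KO) and bars are group means. Tagln, Acta2, Myh11, Gsn and Mgp lie lower and Stmn1 lies higher in all 3 KO libraries, and Plagl1 lies higher in KO in members with Higd1b and overlaps in those without.

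Part of the collagen and elastic fibre genes lay lower in KO over the remaining members as a whole. Of 35 matrix genes tested in the remaining members, 11 were lower and 2 higher at an unadjusted p under 0.05, against 4.07% lower and 2.97% higher of all genes tested, and none passed after adjustment. The median log2 difference was -0.31 against -0.01 for all genes. Col1a1 had 2138 and 2126 CPM in Het and 1642, 863 and 1339 CPM in KO, a log2 difference of -0.73 ± 0.21. Col1a1 went the other way in members with Higd1b. There it had 92.9 and 254 CPM in Het and 322, 315 and 387 in KO (not TMM-scaled). Members without Higd1b had 2863 and 2683 CPM in Het and 2581, 1452 and 1679 in KO. Col1a2 differed by 0.55 ± 0.31 on the log2 scale with Higd1b and by -0.48 ± 0.18 without it. Col3a1 differed by 0.41 ± 0.30 with Higd1b and by -0.51 ± 0.25 without it. Sparc, a collagen-binding glycoprotein of the basement membrane list, stood at 2965 and 2588 CPM in Het and 1693, 1901 and 1549 in KO, a log2 difference of -0.70 ± 0.14 with an edgeR adjusted p of 0.332. Of 18 basement membrane genes tested, 1 (Sparc) was lower and 0 higher at an unadjusted p under 0.05. Of all genes, 4.07% were lower and 2.97% higher. The median log2 difference of that list was -0.04, so it did not lie lower as a set. Over all 153 members Sparc differed by 0.15 ± 0.18 and overlapped between groups. Fbln1 and Vcan were among the lower 11, and Timp3, an inhibitor of matrix proteases, was one of the 2 higher, at 315 and 265 CPM in Het and 665, 579 and 329 in KO. Eln, at 4724 and 5867 CPM in Het and 2306, 4679 and 6265 in KO, overlapped between groups. Members with at least 3 markers of endothelial, epithelial, immune or mesothelial cells numbered 7 and 6 in Het and 28, 8 and 7 in KO, and with them left out 5 genes passed, all lower, and 3 of them were the fibrillar collagens Col1a1 (log2 -1.96), Col3a1 (-1.88) and Col1a2 (-1.57).

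Genes of pericyte identity and of its signalling pathways gave no call in the remaining members. Of 19 identity genes tested, 3 were lower (Rgs5, Postn and Map3k7cl) and 0 higher at an unadjusted p under 0.05, against 4.07% lower and 2.97% higher of all genes tested, with a median log2 difference of 0.02. Rgs5 overlapped between groups in members with and without Higd1b (not TMM-scaled). With Higd1b it had 92.9 and 311 CPM in Het and 254, 145 and 13.8 in KO. Without Higd1b it had 846 and 112 CPM in Het and 44.0, 357 and 233 in KO, so Het1 alone stood high. Postn, a matricellular protein, stood at 701 and 659 CPM in Het and 580, 444 and 322 CPM in KO, a log2 difference of -0.59 ± 0.23. Ndufa4l2 overlapped between groups, at 1058 and 943 CPM in Het and 983, 1124 and 804 in KO. Among receptors and their effectors, 1 of 9 PDGF genes was lower (Pdgfrl), 0 of 11 Notch genes differed, 0 of 7 genes of nitric oxide and cGMP relaxation differed, and 2 of 13 vasoactive receptor and channel genes were lower (Atp1b1 and Atp1b2). Of 20 TGF-beta and BMP genes, 2 were higher (the BMP targets Id1 and Id3) and 1 lower (Eng, a co-receptor). These counts are at an unadjusted p under 0.05, beside the same 4.07% and 2.97% of all genes, and a p that misses the threshold does not show that levels were equal.

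Part of the early response and heat shock genes lay lower in KO members. Of 25 genes of tissue dissociation and stress tested in the remaining members, 10 were lower and 0 higher at an unadjusted p under 0.05, against 4.07% lower and 2.97% higher of all genes tested, and none after adjustment. The other 15 did not pass, and the median log2 difference of the list was -0.39 against -0.01 for all genes. Klf2, a transcription factor induced by flow and by digestion, stood at 1135 and 1005 CPM in Het against 696, 302 and 452 CPM in KO. Hspa1a, a heat shock chaperone, stood at 126 and 129 CPM in Het and 57.4, 43.1 and 49.9 CPM in KO. Fos, the most abundant gene of the list, overlapped. The part of dissociation in the lower contractile and matrix genes was not tested.

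No gene of the cell cycle passed the adjusted threshold in the main fit of the remaining members. Of 25 listed, 14 passed the low-count filter, several of them mainly through their KO counts, so no count over the list is given. Stmn1, which encodes a microtubule regulator, stood at 147 and 123 CPM in Het against 313, 259 and 376 CPM in KO, a log2 difference of 1.22 ± 0.27. Hmgb2, a chromatin protein of dividing cells, stood at 364 and 86.3 CPM in Het and 629, 622 and 635 in KO, and Het2 was the library that lay far below the rest. Cell-cycle genes such as Top2a rested on few Het UMIs, with 2 and 0 UMIs in Het and 89, 8 and 42 in KO. With no count filter, 54 of 14634 genes passed in the remaining members, 33 higher and 21 lower. Among them were Hmgb2, Top2a, Cenpa, Cks2, Prc1 and Ube2c, beside genes outside the cell cycle such as Xist, Dcn, Hbb-bs and Cxcl2. Without the filter, genes with few Het UMIs enter, so these names are no support for the list.

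The share of cycling members overlapped between the groups at the main threshold. Members with UMIs of at least 3 of 10 mitotic genes were 13.3% in Het1 (2 of 15), 0 of 17 in Het2 (Wilson interval up to 18.4%), 16.4% in KO1, 11.4% in KO2 and 16.1% in KO3, with an exact permutation p of 0.3 (n = 2 and 3) and overlapping groups. With at least 2 of the 10 genes the shares were 13.3% and 0% in Het against 23.6%, 17.1% and 19.4% in KO, and with at least 4 pericyte markers 10% and 0% against 14.6%, 11.1% and 14.3%, both without overlap (exact permutation p 0.1 each, n = 2 and 3). The mean difference of 7.97 percentage points was 1.31 without Het2 and 14.6 without Het1. When every barcode was thinned to 3000 UMIs before gating, the shares were 11.8% and 8% in Het and 10.4%, 6.12% and 19.6% in KO (exact permutation p 0.9, n = 2 and 3). Without the 8 off-type barcodes they were 15.4%, 11.8% and 14.8% in the KO libraries (exact permutation p 0.2, n = 2 and 3).

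Plagl1, an imprinted zinc finger gene, was higher in KO over all members and kept its sign in the rest. It encodes a growth regulator of the embryo, and its transcript, like that of Lrrc58, has been reported as a trigger of ZSWIM8-dependent decay of miR-322 and miR-503. Both microRNAs are shown because the pairing of their seed, bases 2 to 8 in capitals, is what groups them (RefSeq, GRCm38.p6; miR-322-5p at chrX:53054306-53054327 and miR-503-5p at chrX:53054027-53054049, minus strand).
mmu-miR-322-5p: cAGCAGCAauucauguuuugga
mmu-miR-503-5p: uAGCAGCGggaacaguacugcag
mmu-miR-16-5p: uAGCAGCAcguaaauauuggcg
The seed AGCAGCA is shared by miR-322-5p and miR-16-5p, and the last seed base of miR-503-5p differs. MicroRNAs were not measured in these libraries.

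Over all members Plagl1 (chromosome 10, 13060504 to 13131694, plus strand, GRCm38) stood at 121 and 151 CPM in Het and 390, 308 and 389 CPM in KO, a log2 difference of 1.41 ± 0.26 with an edgeR adjusted p of 0.0412. Off-type barcodes gave 59.0% of its KO UMIs. In the remaining members it stood at 119 and 148 CPM in Het and 224, 234 and 209 CPM in KO, a log2 difference of 0.73 ± 0.25 with an edgeR adjusted p of 0.506. The same gene gave a log2 difference of -0.23 in the smooth muscle gate and -0.00043 in the alveolar fibroblast gate.

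Plagl1 levels differed most in members with Higd1b. In these it had 2 and 0 UMIs in Het against 58, 60 and 37 UMIs in KO, which is 46.4 and 0 CPM against 278, 363 and 511. One of 9 Het and 38 of 50 KO barcodes with Higd1b held a Plagl1 UMI. In members without Higd1b the levels were 143 and 192 CPM in Het and 186, 102 and 116 in KO, with 12 of 23 Het and 35 of 63 KO barcodes positive. The split was chosen after these values were seen, and with 9 Het barcodes it is a description without a test. Lrrc58 overlapped between groups in the remaining members, at 112 and 80.1 CPM in Het and 69.2, 92.4 and 86.4 in KO. Its longest 3′ UTR holds 1 match to the seed of miR-322-5p (letters TGCTGCT, transcript strand), shown in capitals because this seed is the one shared with miR-16-5p (GENCODE M21, chr16:37882814-37882837, plus strand).
Lrrc58: tgcgtgtggccctgTGCTGCTcac
The same 3′ UTR also holds 1 match to the seed of miR-503-5p (letters CGCTGCT). The longest Plagl1 3′ UTR held 0 matches to either, which says nothing of longer or imperfect pairing.

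Effects in the gate were set against those in the most similar gates of the same libraries, with the library as a block. Against 378 smooth muscle barcodes the genotype effect differed for 230 of 8834 genes over all 153 members (2.6%), and for 0 of 8131 (0%, with 539 at an unadjusted p under 0.05 in edgeR) without the 8 off-type barcodes. Over all members the count was lowest, 64, without Het2 and 81 without KO1. Leaving out only the 6 mesothelial-marked barcodes gave 24 genes, led by the heart muscle genes Ttn, Myh6, Tnni3 and Myl7. A smooth muscle barcode held a UMI of Actg2 or Cnn1. It also held UMIs of at least 3 of Acta2, Actg2, Cnn1, Myh11, Tagln, Des and Lmod1. It held 0 UMIs of Tcf21, Pdgfra, Ptprc, Epcam and Cdh5. Tagln, Acta2 and Myh11 thus helped to choose these barcodes, so their contrasts are descriptions and carry no test. Tagln and Acta2 differed in smooth muscle barcodes by -0.09 and -0.02 on the log2 scale. The gate's effect minus theirs was -1.39 and -1.12 over all members and -0.82 and -0.59 without the off-type barcodes.

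Against 1333 alveolar fibroblast barcodes the effect differed for 2 of 10639 genes over all members (0.0188%), Gas6 and Igfbp2, and for 4 of 10217 without the off-type barcodes (0.0392%). Those 4 were the protease inhibitor Timp3 (1.47 ± 0.26 on the log2 scale), the elastin gene Eln (1.33 ± 0.23), Ifitm1 (1.45 ± 0.27) and Gm20186 (-4.24 ± 0.76), with edgeR adjusted p of 0.0426, 0.0426, 0.0456 and 0.0426. For Eln the alveolar fibroblasts differed by -1.63 while the remaining members differed by -0.26 ± 0.28. Both gates share libraries with the members, so these are differences between gates within the same embryos. Over all members the count against alveolar fibroblasts was 52 without KO2, 5 and 6 without KO1 and KO3, and 0 without either Het library (811 and 683 at an unadjusted p under 0.05 in edgeR).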

How the data were processed

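UMI counts per gene and barcode were deposited by the authors as whole numbers, not normalized, made with Cell Ranger 4.0.0 on mm10 per the submitters' processing notes. Lungs were digested and loaded on a 3′ kit per the labels' protocols. The annotation is not given in the sources used here, and 32158 of 32285 gene IDs matched GENCODE M21, which gave coordinates. Barcodes needed 500 genes and at most 15% mt- UMIs. Doublets were not removed in the main analysis: removing the highest simulated-doublet scores took 0 members. Member UMIs were summed per library (148222 to 711780) and tested with edgeR 4.0.16 (quasi-likelihood, TMM, low-count filter), with DESeq2 1.42.0 as an alternative. Cells are not replicates. Shares used exact two-sided permutation over the 5 libraries, so p-values measure the spread between these embryos. The test steps were checked on simulated data.

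The members, gene lists and tests were chosen with earlier results of these data known. The rule named the 10 genes of largest change in each direction past the threshold, without overlap and with at least 10 CPM, the genes past the threshold in each list and the 3 most abundant of each list. Other genes given with values, the Higd1b split, the heart muscle list and the off-type barcodes were chosen after values were seen.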

Additional observations from a re-analysis of the deposited data

Results flagged for a closer look

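The KO minus Het effect over all 153 members differed from that in smooth muscle barcodes of the same libraries for 26 named genes (edgeR interaction test, adjusted p under 0.05), given here as the log2 effect in the gate minus that in smooth muscle barcodes. None passed once the 8 off-type barcodes were left out. Genes of the mesothelial-marked barcodes gave the highest values, with Upk3b at 13.90, Lrrn4 at 12.17, Gpm6a at 11.61, Podxl at 11.29, Cldn15 at 10.74, Col4a4 at 9.70, Tmem108 at 9.45, Upk1b at 7.82, Ezr at 7.39, Rspo1 at 4.66, Hhip at 4.58 and Sfrp2 at 4.45. For 4 contractile genes the effect was more negative in the gate, with Tagln at -1.39, Myh11 at -1.22, Acta2 at -1.12 and Cald1 at -0.63. Crip1 (-0.31, adjusted p 0.556) and Myl6 (-0.24, adjusted p 0.579) did not pass. Tagln, Myh11 and Acta2 helped to choose the smooth muscle barcodes. Though counted in the 26, their values are therefore descriptions and carry no test. Notch1 gave -1.24, Gsn -1.03, Mgp -1.01, AY036118 -0.94, Malat1 -0.63 and Gm42418 -0.58. Plagl1 gave 1.60, the calcium pump gene Atp2a2 1.59, Igf2 1.27 and Gapdh 0.70.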

How the results depend on the processing

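The shares of members kept their direction in every alternative run. Over all 153 members, the 33 genes past the threshold became 53 with DESeq2, 290 with no count filter, 1 with at least 2 markers, 5 without mixed barcodes, 3 without cycling barcodes, 91 with sex as a covariate and 184 in male libraries alone. The count was 0 with at least 4 markers (228 at an unadjusted p under 0.05), with up to 1 excluding UMI (276), without mesothelial-marked barcodes (302), without all 8 off-type barcodes (294, and 111 in DESeq2), with members thinned to 3000 UMIs (104), in members with (90) or without (153) Higd1b alone, and when excluding Ptprc, Epcam and Cdh5 only (820). Scaling by library size alone gave 26 higher and 3 lower against 26 and 7. Leaving out 1 library gave 0 to 91. Among the remaining members alone, leaving out 1 KO library gave 0 to 2 genes and no count filter 54. Counts with sex as a covariate or in male libraries alone are left out, since KO3 is then the only KO library set against Het.

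Deviations from the group mean in same-numbered libraries correlated at r -0.008 (Het1 with KO1) and -0.095 (Het2 with KO2). The deviations of Het1 and Het2 mirror each other by construction. Differently numbered pairs therefore gave the same values with the opposite sign (0.008 for Het2 with KO1, 0.095 for Het1 with KO2). For this reason the correlations cannot decide whether same-numbered libraries share more than a number. A replicate block gave 82 genes over all members and 1, Xist, in the remaining ones.

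Against smooth muscle, the 230 genes became 0 with at least 4 markers, 0 without off-type barcodes, 24 without mesothelial-marked ones and 64 to 194 leaving out 1 library, and library size alone gave 151 higher and 38 lower against 133 and 97. Against alveolar fibroblasts, the 2 genes became 0 with library size alone, at least 4 markers or mesothelial-marked barcodes left out, 4 without off-type barcodes, 66 with sex as a covariate and 0 to 52 leaving out 1 library.

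Log2 differences reversed with at least 2 markers for Gpm6a (-0.0267), Lrrn4 (-0.67), Ezr (-0.20) and Sfrp2 (-0.16), with up to 1 excluding UMI for Podxl (-0.21), Lrrn4 (-0.79) and Ezr (-0.0734), and when excluding 3 genes only for Lrrn4 (-0.36), Ezr (-0.0300) and Hhip (-0.0625). Hhip gave -0.0375 without mixed barcodes, Mgp 1.99 with Higd1b and Plagl1 -0.30 without Higd1b. The cause of these shifts was not tested. With 32 Het members, genes of few UMIs could not be resolved.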
